A study of Solanum lycopersicum with 4 samples.

Results

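Genes of auxin, gibberellin, abscisic acid and cytokinin biology were followed through tomato fruit development by the degradome tags on their cDNAs. A gene was included when its annotation named one of these hormones or brassinosteroid, leaving out auxin response factors, F-box proteins, annotations that name ethylene, and Solyc01g095700. This gave 35 of the 5373 cDNAs listed: 21 for auxin, 8 for gibberellin, 4 for abscisic acid, 2 for cytokinin and 0 for brassinosteroid. The fruits were whole fruits of the variety Ailsa Craig (Solanum lycopersicum), grown in a greenhouse on rockwool, at 5 days after pollination, mature green, breaker and 7 days after breaker, which the file headers call red ripe. There was 1 library per stage, so no difference below has a replicate check, a standard deviation or a p-value, and each compares libraries.

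These hormones act through short chains of proteins. Auxin is exported by efflux carriers, is removed by GH3 enzymes that join it to amino acids, and acts by triggering the destruction of Aux/IAA proteins, the repressors of auxin response factors; SAUR genes are early targets. Gibberellin 20-oxidases make gibberellins, gibberellin 2-oxidases inactivate them, and GID1 receptors sense them. Abscisic acid binds PYR/PYL receptors, which then block type 2C protein phosphatases. LOG enzymes release active cytokinin, which membrane histidine kinases sense. Auxin and gibberellin are known to drive fruit set and early growth in tomato, and abscisic acid is known as a promoter of ripening.

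The measure is the number of degradome tags on a whole cDNA, in tags per 10000000 tags (TP10M). A tag marks the 5′ end of an uncapped, polyadenylated RNA fragment, so a total cannot tell more transcript from faster decay, nor fewer cells of a type from less RNA per cell in a whole fruit. The tables list predicted small RNA sites, and a total was given for a library only where at least 1 tag lay at such a site of the cDNA. A missing total is therefore unknown, not 0. Totals were listed for 3716 cDNAs in the youngest fruit, 3379 in mature green fruit, 1879 in breaker fruit and 2978 in the last stage. No source used here gave library sizes or cDNA lengths, so depth is unknown and totals of different genes do not rank their levels. Mean totals over the libraries with a value were used to choose genes to name. The stage labels were set beside 28 genes with annotation words for ripening or green tissue, and these gave a mixed picture. Among 13 genes of ethylene synthesis, 3 of the 4 compared at 7 days after breaker against 5 days after pollination were called higher (at least 2-fold) and 0 lower. Over all cDNAs compared, the shares were 13.7% higher and 23.7% lower. ACC oxidase Solyc07g049530 had 553, 1374, 16973 and 11612 TP10M in stage order, whereas the ACC oxidase-like gene Solyc11g072110 had 25 TP10M at breaker against 747 at 5 days after pollination. All 3 chlorophyll-binding protein genes compared at mature green against 5 days after pollination were lower, against 18.6% of all cDNAs compared. Of 3 expansin genes, 1 could be compared, Solyc01g112000. It had 538, 1769 and 1330 TP10M at 5 days after pollination, mature green and 7 days after breaker. Of 8 polygalacturonase genes, which act on cell walls, 5 had a total at 5 days after pollination, and the 1 compared at 7 days after breaker, Solyc06g009790, had 82 TP10M there against 454 at 5 days after pollination.

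Hormone genes were listed most often in the youngest fruit. Of the 35 genes, 29 had a total at 5 days after pollination (82.9%), 18 in mature green fruit (51.4%), 11 in breaker fruit (31.4%) and 16 in the last stage (45.7%). Over all cDNAs the shares were 69.2%, 62.9%, 35.0% and 55.4%. Thus 13 hormone genes (37.1%) had a total at 5 days after pollination and in no other library, against 894 of all 5373 cDNAs (16.6%). Of these 13, 9 (69.2%) owed the listing to category 4 peaks alone, positions with a single read, against 628 of the 894 cDNAs (70.2%). Whether the genes had tags elsewhere on the cDNA at later stages was not tested, since no total was listed.

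The 13 genes were 8 auxin genes, 3 gibberellin genes, the LOG gene Solyc10g084150 (35 TP10M) and the abscisic acid insensitive 8 homologue Solyc01g068200 (430 TP10M). Both efflux carriers were among them, Solyc03g118740 with 328 and Solyc04g007690 with 104 TP10M. So were the GH3-like gene Solyc10g008520 (275 TP10M), the Aux/IAA gene Solyc09g090910 (89) and the SAUR gene Solyc01g091030 (64). Solyc06g083140, annotated as auxin-induced in root cultures protein 12, had 1808 TP10M. Both members with the DUF966 domain, annotated only as auxin-regulated, were also in this set, at 142 TP10M for Solyc11g066380 and 3 for Solyc01g081630. A total solely at 7 days after breaker was listed for 1 gene, the cytokinin receptor Solyc05g015610 (393 TP10M). This was 2.86% of the hormone genes, against 7.05% of all cDNAs. A total solely at mature green was also listed for 1 gene, the SAUR gene Solyc04g053030 (1 TP10M), or 2.86% against 9.64% of all cDNAs.

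**Figure D1:**
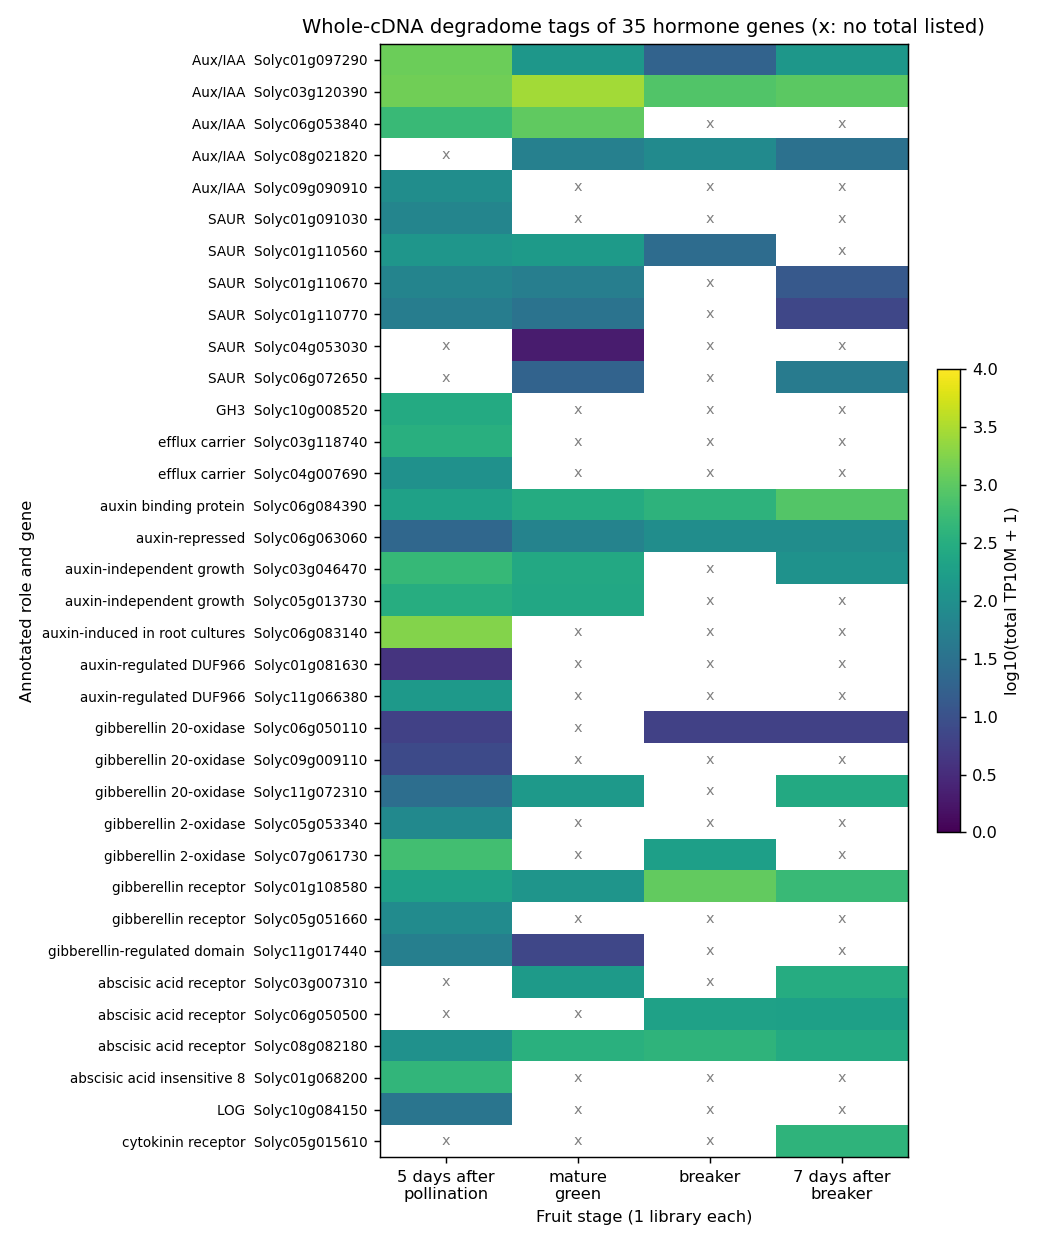
Total degradome tags of the 35 hormone genes (rows, by annotated role) in the 4 libraries (columns), coloured by log10 of the total in TP10M plus 1, with a cross where no total was listed. The first column is the fullest, with 29 of 35 genes listed, and breaker the emptiest, with 11.

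Among Aux/IAA genes the profiles diverged. Solyc01g097290 had 1266 TP10M at 5 days after pollination, 129 in mature green fruit, 18 in breaker fruit and 129 in the last stage. Its highest value was 70.3 times its lowest, a range wider than or equal to that of 99.5% of the 1044 cDNAs with a total in all 4 libraries. Solyc03g120390 had 1368, 2836, 830 and 970 TP10M in the same order, so it was highest at mature green. Solyc06g053840 also had more tags at mature green, with 1039 TP10M against 517 at 5 days after pollination, and no later total. Solyc08g021820 had 55, 82 and 30 TP10M from mature green on. As deposited, Solyc01g097290 and Solyc03g120390 were thus at their lowest at breaker, and Solyc08g021820 was at its highest of 3 listed values. After median-of-ratios scaling of the libraries, Solyc03g120390 was lowest at 7 days after breaker (897, against 1070 at breaker). Solyc01g097290 stayed lowest at breaker (23.2), and Solyc08g021820 stayed highest there (106).

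SAUR genes, early-response genes of auxin, were listed with 1 to 152 TP10M. Solyc01g110560 had 125 TP10M at 5 days after pollination, 152 at mature green and 25 at breaker, so its breaker value was its lowest. Solyc01g110670 had 63, 50 and 12 TP10M at 5 days after pollination, mature green and 7 days after breaker, and Solyc01g110770 had 48, 32 and 6. Both genes were listed under miR173 at an alignment penalty of 6.5 with the same deposited p-values, and whether they share tags was not tested. Solyc06g072650 went the other way, with 45 TP10M at 7 days after breaker against 18 at mature green.

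Some auxin-related genes had more tags in ripening fruit. The ER auxin binding protein 1 gene Solyc06g084390, a lumenal protein that binds auxin, had 191, 289, 389 and 838 TP10M in stage order. The auxin-repressed gene Solyc06g063060, of the dormancy-associated family, had 21, 61, 90 and 91 TP10M. Both were higher at each later stage, 2 of the 6 hormone genes with 4 totals, against 6.80% of all such cDNAs. With the libraries rescaled by median-of-ratios scaling, Solyc06g063060 was highest at breaker (116) and not at 7 days after breaker (84.1). By contrast, Solyc06g084390 kept its order (169, 278, 501 and 775). The auxin-independent growth promoter gene Solyc03g046470 had 478, 263 and 110 TP10M at 5 days after pollination, mature green and 7 days after breaker, and its relative Solyc05g013730 had 312 and 247 in the first 2 stages. Despite the name, this annotation states no step of auxin action.

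Gibberellin genes differed in profile. Of the enzymes that make the hormone, the gibberellin 20-oxidase-3 gene Solyc11g072310 had 27, 146 and 270 TP10M at 5 days after pollination, mature green and 7 days after breaker. The other 20-oxidase genes had few tags, with 5 TP10M in each of 3 libraries for Solyc06g050110 and 7 TP10M at 5 days after pollination for Solyc09g009110. Of the inactivating enzymes, gibberellin 2-oxidase Solyc07g061730 had 178 TP10M at breaker against 610 at 5 days after pollination. Solyc05g053340, another 2-oxidase, had 77 TP10M at 5 days after pollination alone. The listed values of the 20-oxidase-3 gene were thus lowest in the youngest library. Of the 2 listed values of the 2-oxidase Solyc07g061730, the one in the youngest library was higher. The later values of these genes come from different libraries, and breaker was not compared with 5 days after pollination over all cDNAs.

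Solyc01g108580, a gibberellin receptor by its GID1L2 annotation alone, had 194, 122, 1084 and 518 TP10M in stage order. Breaker was 8.89 times mature green, and its range was wider than or equal to that of 90.4% of cDNAs with 4 totals. A second gene of this annotation, Solyc05g051660, had 83 TP10M at 5 days after pollination and no other total. Snakin-2, Solyc11g017440, entered by its gibberellin-regulated domain and had 6 TP10M at mature green against 53 at 5 days after pollination.

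All 3 abscisic acid receptors had totals at 7 days after breaker. PYL9 Solyc08g082180 had 105, 349, 393 and 277 TP10M in stage order, and its lowest value was in the youngest fruit. PYL8 Solyc03g007310 had 299 TP10M at 7 days after breaker against 148 at mature green, and PYL4 Solyc06g050500 had 187 TP10M at 7 days after breaker against 196 at breaker. Neither had a total at 5 days after pollination. Solyc01g095700, a further PYL8-annotated gene outside the set, had 251, 309, 126 and 226 TP10M.

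**Figure D2:**
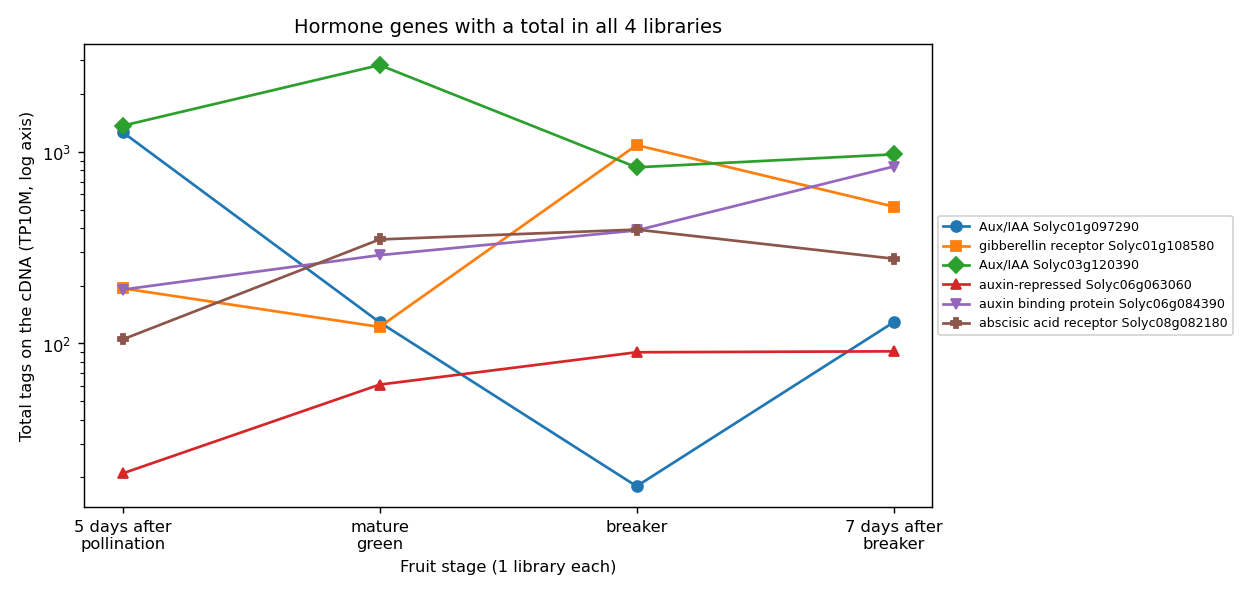
Total tags in TP10M (log axis) over the 4 stages for the 6 hormone genes with a total in every library, 1 line per gene. The Aux/IAA gene Solyc01g097290 runs to 18 TP10M at breaker, where the GID1L2-annotated gene Solyc01g108580 reaches 1084. The auxin binding protein gene ends at 838.

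Stage pairs were then compared over genes with a total in both libraries. The call of a higher or lower gene required that its totals summed to at least 50 TP10M and differed at least 2-fold on log2 of the total plus 1 TP10M, a scale that understates differences of low values. At mature green against 5 days after pollination, 14 hormone genes could be compared, of which 5 were higher (background over all cDNAs 10.4%) and 2 lower (background 18.6%). In shares, 35.7% of the hormone genes were higher and 14.3% lower. Their median log2 ratio was -0.024, against -0.23 over all 2284 cDNAs compared. The higher genes were the 20-oxidase Solyc11g072310 (log2 ratio 2.39), PYL9 Solyc08g082180 (1.72), the auxin-repressed gene Solyc06g063060 (1.49), and the Aux/IAA genes Solyc03g120390 (1.05) and Solyc06g053840 (1.01). The lower genes were the Aux/IAA gene Solyc01g097290 (-3.28) and snakin-2 Solyc11g017440 (-2.95). Rescaling the libraries moves every log2 ratio of this pair up by about 0.12, and the median of the hormone genes then was 0.099. A set without 6 members whose annotation names no step of hormone action (both auxin-independent genes, Solyc06g083140, both DUF966 genes and snakin-2), chosen after seeing the data, had 1 lower gene and a median of 0.59.

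At breaker against mature green, 8 hormone genes could be compared, of which 1 was higher (background 8.68%) and 3 lower (background 28.2%). The higher gene was Solyc01g108580, annotated as a gibberellin receptor, at a log2 ratio of 3.14, which was at or above 99.0% of all cDNAs compared. The lower genes were all auxin genes: Aux/IAA Solyc01g097290 (-2.77), SAUR Solyc01g110560 (-2.56) and Aux/IAA Solyc03g120390 (-1.77). However, 6 of the 8 genes compared were auxin genes, of which 3 were lower and 3 lay between, with a median of -0.67. The median over all 8 was 0.30, against -0.50 over all 1394 cDNAs. Breaker listed the fewest cDNAs, and rescaling moves every log2 ratio of this pair up by about 0.42. The split over all cDNAs was 121 higher and 393 lower as deposited, and 202 and 226 after rescaling, while the hormone genes kept 1 higher and 3 lower.

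At 7 days after breaker against breaker, 2 of 8 hormone genes were higher (background 23.4%) and 2 lower (background 7.26%). Aux/IAA Solyc01g097290 was higher (2.77), with 129 TP10M at 7 days after breaker against 18 at breaker, and the auxin binding protein gene Solyc06g084390 was higher (1.11), a call that was lost after rescaling (0.63). Aux/IAA Solyc08g021820 (-1.42) and the GID1L2-annotated gene Solyc01g108580 (-1.06) were lower. The median was -0.026, against 0.46 over all 1336 cDNAs. Rescaling moves this pair by about -0.48, and the split over all cDNAs then turned to 120 higher and 182 lower, against 313 and 97 as deposited.

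Between the ends of the series, at 7 days after breaker against 5 days after pollination, 5 of 10 hormone genes were higher (background 13.7%), 4 were lower (background 23.7%) and 1 lay between. The higher genes were the 20-oxidase Solyc11g072310 (3.27), the auxin binding protein gene Solyc06g084390 (2.13), the auxin-repressed gene Solyc06g063060 (2.06), the GID1L2-annotated gene Solyc01g108580 (1.41) and PYL9 Solyc08g082180 (1.39). The lower genes were all auxin-annotated: Aux/IAA Solyc01g097290 (-3.28), SAUR genes Solyc01g110770 (-2.81) and Solyc01g110670 (-2.30), and Solyc03g046470 (-2.11). The 7 auxin genes had 2 higher and 4 lower with a median of -2.11, the 2 gibberellin genes were both higher, and so was the single abscisic acid gene. The median over all 10 was 0.45, midway between Aux/IAA Solyc03g120390 (-0.50) and PYL9 (1.39), against -0.23 over all 2047 cDNAs. It moved to 1.45 over 9 genes after rescaling, which took Solyc01g110770 below the minimum, and to 1.39 without members whose annotation names no step of hormone action. It was 0 with a minimum of 10 TP10M or none, which added the 20-oxidase Solyc06g050110 at equal totals.

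Because breaker lacked many totals, 7 days after breaker was also compared with mature green, a comparison added after the values were seen. Of 12 hormone genes, 4 were higher (background 10.1%) and 3 lower (background 15.6%). The GID1L2-annotated gene Solyc01g108580 (2.08), the auxin binding protein gene Solyc06g084390 (1.53), SAUR Solyc06g072650 (1.28) and PYL8 Solyc03g007310 (1.01) were higher, the last only just and not after rescaling (0.95) or with a pseudocount of 5 TP10M (0.99). SAUR Solyc01g110670 (-1.97), Aux/IAA Solyc03g120390 (-1.55) and Solyc03g046470 (-1.25) were lower. Comparisons that share a library are not independent of each other.

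**Figure D3:**
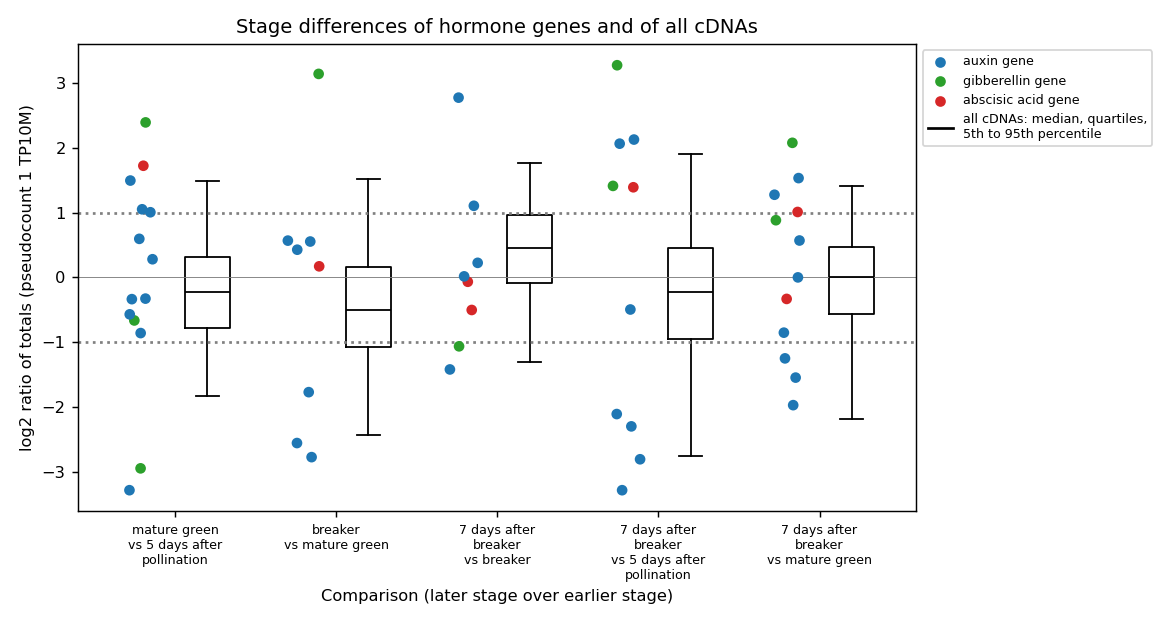
Log2 ratio of totals, later over earlier stage, for each hormone gene that could be compared (points, coloured by hormone, jittered sideways) and for all cDNAs compared (boxes: median and quartiles, whiskers at the 5th and 95th percentiles), with dotted lines at the 2-fold limits. At 7 days after breaker against 5 days after pollination 9 of the 10 points lie outside the dotted lines, 5 above and 4 below.

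Other genes found by annotation words chosen for the same pathways, outside the set, numbered 58. Whether each acts in these pathways was not tested. The 58 genes included 20 auxin response factors, 24 annotated with protein phosphatase 2C and 6 with histidine kinase, of which 5 were ethylene receptors caught by their domain name. No gene matched the words for DELLA proteins, 9-cis-epoxycarotenoid dioxygenase or SnRK2 kinases. At 7 days after breaker against 5 days after pollination, 4 of 23 were higher (background 13.7%) and 7 lower (background 23.7%), close to the background, with a median of -0.23, equal to that over all cDNAs to 2 decimals. For auxin response factors the counts were 0 higher and 6 lower of 12, and for phosphatase genes 2 higher and 1 lower of 8. Among these genes, the ethylene receptor Solyc06g053710 had 4224 TP10M at 7 days after breaker and no other total, and auxin response factor 2 Solyc03g118290 had 3229, 2493, 5008 and 3239 TP10M in stage order.

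Few tags of the hormone genes lay at their listed small RNA sites. In the authors' deposited table the 35 genes had 72 entries with 129 listed peaks, 70 of them of category 4, 48 of category 2, 10 of category 3 and 1 of category 0. These are 54.3%, 37.2%, 7.75% and 0.775% of the peaks. Over all cDNAs the shares were near these, at 49.3%, 43.1%, 6.12% and 1.18%. In CleaveLand, the program behind the tables, category 0 marks the highest position of a cDNA. All 70 peaks of category 4 were given as 0 TP10M. The lowest deposited p-value was 0.09, and 110 of the 129 were at least 0.9, a share that was not computed over all cDNAs. A category 0 or 1 peak was found in 1 of 35 genes, or 2.86% (exact Clopper-Pearson 95% interval 0.0723 to 14.9, counting error over genes only), against 188 of all 5373 cDNAs, or 3.50%.

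That gene was the gibberellin 20-oxidase Solyc06g050110, under miR172 at a penalty of 7. Its category 0 peak at cDNA position 707, opposite position 9 of the small RNA, held 1 of 5 TP10M at breaker, with a deposited p-value of 0.09 and q-value of 0.11 in the authors' deposited table. The same position was a category 4 peak at 5 days after pollination.

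Among genes with at least 50 TP10M, the tags at all listed sites made up at most 2.51% of the total in the youngest fruit, 2.33% in mature green fruit, 3.33% in breaker fruit and 2.73% in the last stage. The medians over hormone genes were 0%, 0.377%, 0.181% and 0.741% in stage order, and over all cDNAs 0.179%, 0.160%, 0% and 0.187%, so most cDNAs listed had few tags at their sites. Among hormone genes with at least 50 TP10M, 0 in each library had a share of at least 5%. Over all cDNAs at that minimum, in stage order, 59 of 3304, 57 of 2966, 46 of 1588 and 38 of 2563 did. Category 4 peaks, with a single read, count as 0 TP10M in these shares, so 0% does not mean no tag. For cDNAs with a category 0 peak in the same library, which are those with a high peak by definition, the medians were 20.6%, 15.6%, 38.7% and 10.9%. The largest peak of a hormone gene was 16 TP10M, in Aux/IAA Solyc03g120390 at mature green, at cDNA position 546 under miR5303, of 2836 TP10M in total. The best aligned gene was Solyc03g046470, under miR6024 at a penalty of 3.5, with 6 TP10M at cDNA position 2196 opposite position 10 and 5 TP10M at position 2195, of 478 TP10M at 5 days after pollination. Solyc05g013730, under miR414 at a penalty of 4, had only category 4 peaks at its sites, given as 0 TP10M. miR414 was the most frequent name, with an entry in 10 of the 35 genes (28.6%), against 23.0% of all cDNAs.

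**Figure D4:**
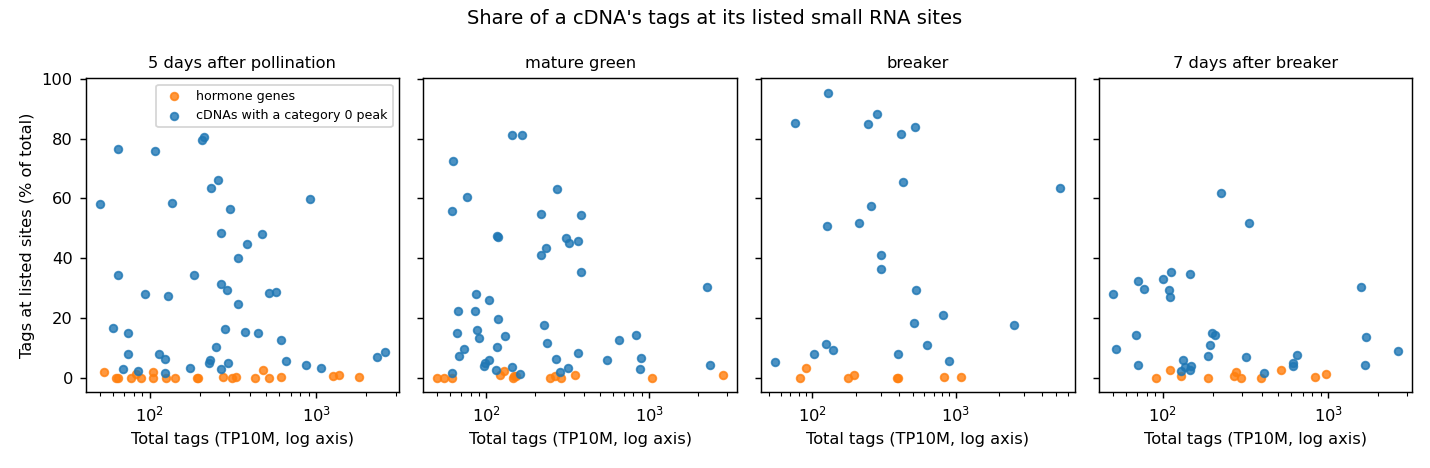
Tags at listed small RNA sites as a percentage of the cDNA's total, against the total in TP10M (log axis), for hormone genes and for cDNAs with a category 0 peak in that library, with a total of at least 50 TP10M. Each panel is 1 library, and the hormone genes stay at or below 3.33% in all 4.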

How the data were processed

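Per the file headers, the 3 deposited tables hold CleaveLand output for ITAG2.3 cDNAs, 1 table for each of positions 9, 10 and 11 of the small RNA. The submitters' processing notes name CASAVA 1.8.0. No source used here gave the aligner or its settings. Totals and peaks are in TP10M per the file headers, and the deposited values are whole numbers: a normalized score that the authors rounded, with raw reads not recoverable. Deposited p-values give the likelihood of a peak by coincidence, and deposited q-values are those p-values after Benjamini-Hochberg adjustment. Penalty and peak category are deposited scores.

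A gene's total was identical in all tables that listed it. Ratios used a pseudocount of 1 TP10M. Genes without a total in a library were left out of its comparisons. Alternatives were a pseudocount of 5 TP10M, a minimum of 10 TP10M or none, median-of-ratios scaling over 1021 cDNAs, and identical genes counted once. Calling was tested on simulated totals without noise, which checks the code but cannot show how often calls from single libraries are wrong. Named genes were, per hormone, the 3 highest mean totals; per comparison, the 3 largest differences each way; genes with a category 0 or 1 peak or a penalty of at most 4; and the 2 highest mean totals among other pathway genes. Further members were named after their values were seen. Members and lists were chosen with earlier results of these data known. Of the 35 identifiers, 0 matched the RefSeq gene table, so names are the files' annotations. In an identifier the digits after Solyc give the chromosome. Python 3.11.15, pandas 2.3.3, NumPy 2.4.6, SciPy 1.17.1 and matplotlib 3.10.9 were used.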

Additional observations from a re-analysis of the deposited data

How the results depend on the processing

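Counts of hormone genes called and their median log2 ratios in the 5 comparisons were recomputed under each alternative. A count was taken as unchanged within 1.5 times, and a median when it moved by less than that on the fold scale without taking the opposite sign. By this rule all 15 values were unchanged with a pseudocount of 5 TP10M, with a minimum of 10 TP10M, with no minimum, and with identical genes counted once, of which there were 0. However, both lower minimums add 1 gene to each comparison that includes 7 days after breaker, and those 3 medians then became 0, against 0.45 with 5 days after pollination, 0.28 with mature green and -0.026 with breaker as the earlier stage. After median-of-ratios scaling 12 of 15 were unchanged by this rule, though medians among them moved. The median at breaker against mature green went from 0.30 to 0.72, and that at 7 days after breaker against breaker from -0.026 to -0.50. Of the values that changed by the rule, the median at mature green against 5 days after pollination changed sign to 0.099. The genes called higher at 7 days after breaker against breaker became 1, and the median at 7 days after breaker against 5 days after pollination became 1.45. Without the 6 members whose annotation names no step of hormone action, an alternative added after seeing the data, 12 of 15 were unchanged. At mature green against 5 days after pollination the lower genes became 1 and the median changed sign to 0.59, and at 7 days after breaker against 5 days after pollination the median became 1.39. With 8 to 14 genes per comparison and 1 library per stage, a single gene can move a median, and depth is unknown. No paired analysis was possible because each stage has a single library.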
